A study of Mus musculus with 2 samples.

Results

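Translation factors are the proteins that bring messenger RNA, initiator tRNA and ribosomal subunits together and then move the ribosome along the message. Here they are the protein-coding genes of the mouse GENCODE annotation whose symbols begin with Eif or Eef, the sex-linked eIF2 gamma genes left out and the Eif2ak kinases kept. The rule used names alone and no measured value. It found 67 genes, of which 66 had values in both mm10 gene tables, out of 21474 protein-coding genes and 43346 mouse genes listed there. Eef1akmt4, a methyltransferase gene, had no row in the tables and carries no value. The material was liver of C57BL/6J mouse embryos at 14 days, pooled over male and female littermates, and the labels name no mutant allele, treatment or second condition. It formed 1 group of 2 stranded, polyadenylated RNA libraries, labelled biological replicates 1 and 2. Each has a biosample entry of its own, but the donor entry is shared. The labels do not say whether both pools came from 1 litter. The spread over these libraries, on which each SD with n = 2 and edgeR's exact test rest, may be technical. The exact intervals and the exact binomial test cover counting error only.

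The libraries held 100477392 and 154601605 expected counts (estimated read pairs per gene) in replicate 1 and replicate 2, of which 1777701 and 2782095 fell on the translation factor genes. Hepatocyte markers summed to 22694 and 25839 TPM and erythroid markers to 203660.5 and 185786 TPM, with all 8 of each list above 10 TPM, so both cell types of the labelled tissue were present. TPM is a level per unit of transcript length, scaled to the same sum in each library. Markers of skeletal muscle differed between the libraries: all 13 were more than 1.5-fold higher in replicate 1, summing to 149 and 20.4 TPM, and none was at 0 in both. Nervous system markers summed to 2.36 and 1.65 TPM and germ cell markers to 0.28 and 0.27 TPM. In bulk tissue, fewer cells of a type and less RNA per cell cannot be told apart.

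Initiation begins when eIF2, loaded with GTP and initiator tRNA, joins the small ribosomal subunit together with eIF1, eIF1A, eIF3 and eIF5. The eIF4F complex, made of the cap-binding protein eIF4E, the scaffold eIF4G and the RNA helicase eIF4A, recruits this complex to the capped message. eEF1A then delivers each aminoacyl-tRNA, eEF1B reloads eEF1A with GTP, and eEF2 drives translocation. Phosphorylation of eIF2 alpha by the Eif2ak kinases turns eIF2 into an inhibitor of its exchange factor eIF2B and lowers initiation. Eif2ak1 does this when heme is short, which couples globin synthesis to heme supply in red cell precursors, and those precursors make up much of the fetal liver.

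The translation factor genes were expressed at high levels as a class. The median member had 37.4 and 42.35 TPM in replicates 1 and 2, a mean of 39.9 ± 3.49 TPM (SD, n = 2 libraries). The median over all protein-coding genes was 1.17 and 1.20 TPM in the same libraries. At least 1 TPM in both libraries was reached by 62 of 66 members (93.9%), against 50.6% of protein-coding genes. At least 10 TPM was reached by 55 members and at least 100 TPM by 14. The family stood well below the cytosolic ribosomal protein genes, whose 84 listed members had medians of 944 and 933 TPM. Together the members took 1.01% and 1.07% of the TPM of all mouse genes. Most of this came from a few genes: Eef1a1 alone held 39.2% and 38.5% of the members' TPM, and Eef1a1, Eif5a, Eef1b2 and Eef2 together held 59.1% and 58.3%.

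**Figure D1:**
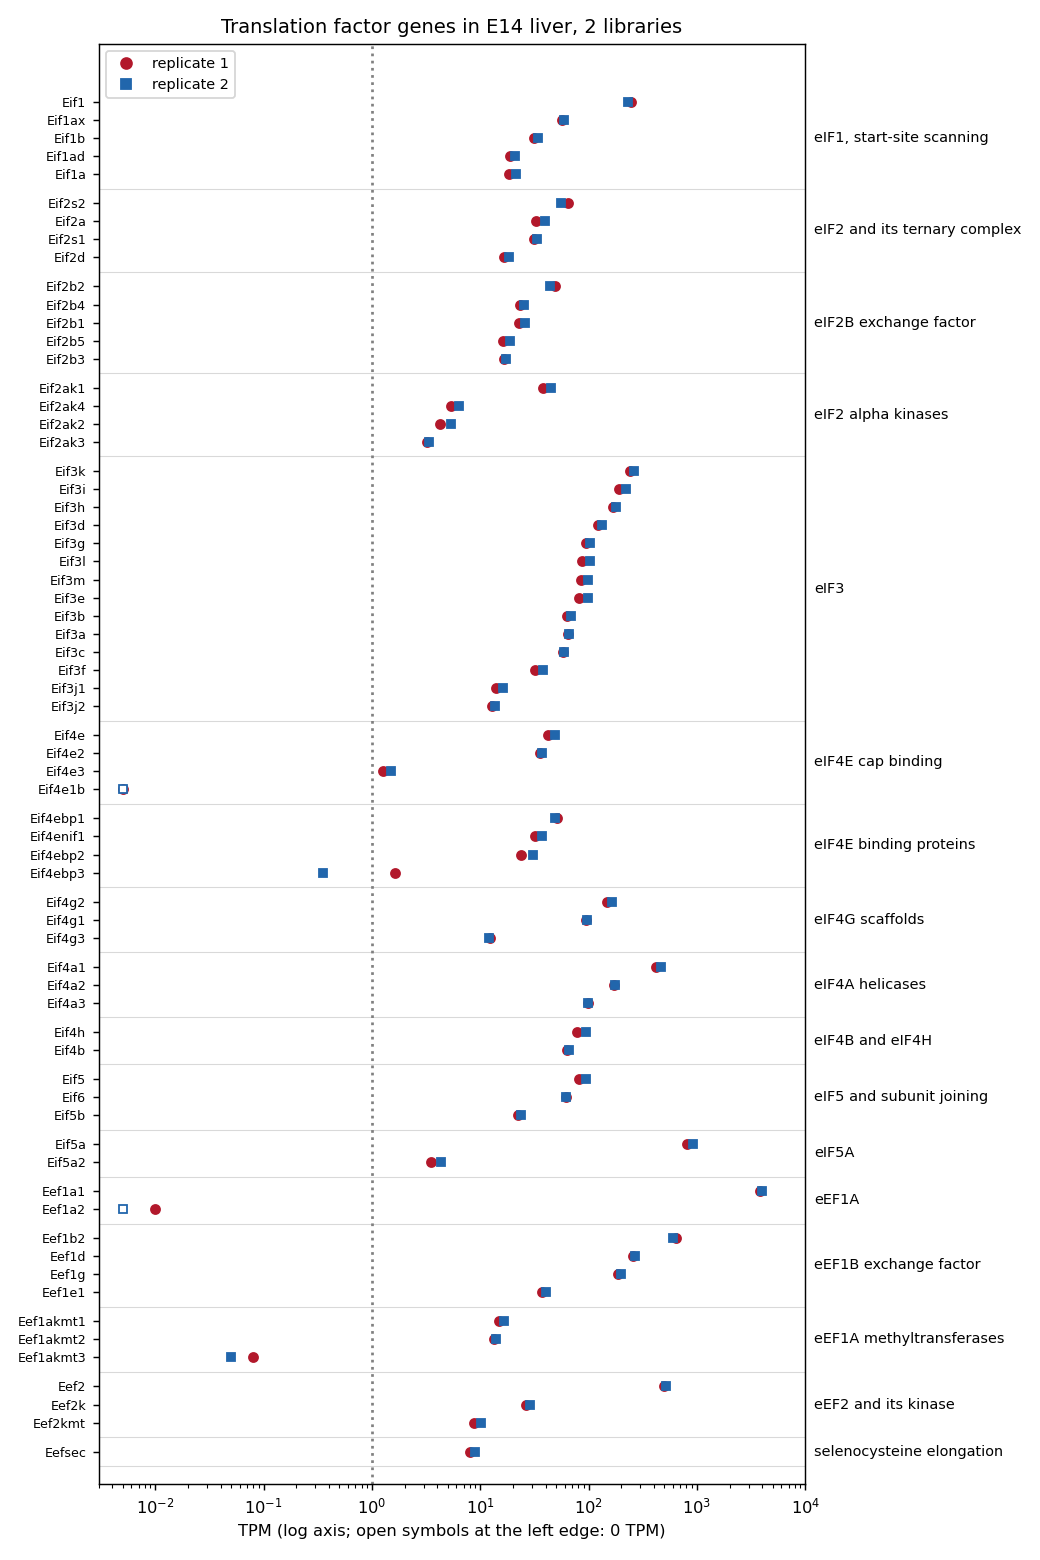
Level of each translation factor gene in TPM (horizontal log axis) in replicate 1 (circles) and replicate 2 (squares), grouped by role, with the dotted line at 1 TPM. Eef1a1 stands at the right at 3838 and 3973 TPM, while Eef1a2, Eif4e1b, Eef1akmt3 and, in replicate 2, Eif4ebp3 lie left of the line.

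The elongation factors held the highest levels. Eef1a1 (chromosome 9, 78478449 to 78489151 on GRCm38, minus strand), which encodes the housekeeping form of eEF1A, had 3838 and 3973 TPM in replicates 1 and 2. Its paralog Eef1a2, the form known from adult muscle and neurons, had 2 counts and 0 counts, and a count of 0 in replicate 2 allows up to 0.00896 TPM (3 counts). Skeletal muscle markers summed to 149 and 20.4 TPM in the same libraries. Eef2, the translocase, had 496 and 523 TPM, so that Eef1a1 exceeded it 7.75-fold and 7.60-fold in replicates 1 and 2. In the older mm9 table the fold was 4.72 and 4.12. Eef2k, the kinase that inactivates eEF2, had 26.6 and 28.95 TPM, and Eef2kmt, a methyltransferase of eEF2, had 8.81 and 10.1 TPM, the lowest of its group.

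The subunits of the exchange factor eEF1B were unequal at the RNA level. Eef1b2 led with 641 and 597 TPM, before Eef1d with 259 and 268 TPM and Eef1g with 188 and 199.8 TPM. Protein-coding transcripts held 35.5% and 28.3% of the Eef1b2 TPM, and those annotated as targets of nonsense-mediated decay 58.8% and 65.1%. The coding share was 96.7% and 96.5% for Eef1d and 89.2% and 90.9% for Eef1g. This order and the folds below are thus those of gene totals and not of coding transcripts. Eef1e1, a relative that serves the multi-synthetase complex, was lowest with 37.3 and 40.4 TPM. The highest of the 3 subunits exceeded the lowest 3.41-fold in replicate 1 and 2.99-fold in replicate 2, and by 6.90-fold and 7.17-fold in the RPKM (reads scaled by gene length and library depth) of the older mm9 table, whose 2 replicates are not named. Of the eEF1A lysine methyltransferases, Eef1akmt1 had 14.98 and 16.6 TPM and Eef1akmt2 13.3 and 14.0 TPM, while Eef1akmt3 was near zero at 0.08 and 0.05 TPM (24 and 21 counts). Eefsec, which delivers selenocysteinyl-tRNA, had 8.05 and 9.01 TPM. Eif5a, whose protein eases peptide bond formation at proline-rich stretches and carries the amino acid hypusine, was the second highest member with 808 and 919 TPM, or 863 ± 77.8 TPM (SD, n = 2). Eif5a2, its paralog, had 3.51 and 4.33 TPM, so that Eif5a held 99.6% and 99.5% of the pair.

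Among the members whose symbols begin with Eif1, Eif1 itself, which keeps the scanning complex open, stood at 245 and 232 TPM. Its paralog Eif1b had 31.4 and 34.1 TPM, which left Eif1 with 88.6% and 87.2% of the pair. Eif1ax, the X-linked eIF1A gene, had 56.9 and 59.7 TPM, but a short retained-intron form held 44.5 and 46.5 TPM of this. Its protein-coding transcript had 12.4 and 13.2 TPM, below the leading transcript of Eif1a with 17.6 and 20.75 TPM. By gene totals, Eif1a with 18.4 and 21.1 TPM and Eif1ad with 18.9 and 20.7 TPM were lowest, in an order that differed between the libraries. In the ternary complex group, Eif2s2, eIF2 beta, led with 65.1 and 54.96 TPM, followed by Eif2a, a non-canonical initiator tRNA carrier distinct from eIF2 alpha, with 32.4 and 39.2 TPM. Eif2s1, eIF2 alpha and the target of the Eif2ak kinases, had 31.25 and 33.7 TPM, and Eif2d was lowest with 16.65 and 18.3 TPM. The 5 subunits of eIF2B spanned 2.97-fold and 2.56-fold. Eif2b2 led with 48.5 and 44.3 TPM, while Eif2b4 with 23.35 and 25.2 TPM and Eif2b1 with 22.65 and 25.7 TPM changed places between the libraries. At the low end Eif2b3 with 16.7 and 17.3 TPM and Eif2b5 with 16.35 and 18.8 TPM did so too, Eif2b5 being lowest in replicate 1 and Eif2b3 in replicate 2.

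Eif2ak1, the heme-regulated kinase (chromosome 5, 143817788 to 143904251 on GRCm38, plus strand), was the leading eIF2 alpha kinase. It had 37.5 and 44.65 TPM in replicates 1 and 2, or 41.1 ± 5.03 TPM (SD, n = 2). Eif2ak4, which senses uncharged tRNA, followed with 5.40 and 6.30 TPM. Eif2ak2, which is activated by double-stranded RNA, had 4.27 and 5.36 TPM, and Eif2ak3, the kinase of the endoplasmic reticulum stress response, had 3.21 and 3.38 TPM. Eif2ak1 thus exceeded the next kinase 6.95-fold and 7.09-fold and held 74.5% and 74.8% of the TPM of the 4 kinases. The order of the 4 was the same in both libraries, but Eif2ak4 and Eif2ak2 were neighbours whose values nearly met, 5.40 TPM at the lowest for Eif2ak4 and 5.36 TPM at the highest for Eif2ak2. By percentile among protein-coding genes, Eif2ak1 stood at 92.6 and the others between 60.5 and 68.0.

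The 12 core subunits of eIF3, the large scaffold on the small ribosomal subunit, spanned a 7.50-fold range in replicate 1 and a 6.81-fold range in replicate 2. Eif3k, a peripheral subunit, was highest with 242 and 259 TPM, before Eif3i with 192 and 221 TPM, and Eif3f was lowest of these with 32.2 and 38.1 TPM. In mm9 RPKM the range was 2.97-fold and 3.17-fold, with Eif3k still highest. There Eif3m was lowest in the first replicate and Eif3e in the second. The median of the 12 was 86.2 and 101 TPM. Eif3j1 and Eif3j2, near-identical genes of a loosely attached subunit, shared reads, with a posterior SD (the error of assigning reads that fit several genes) of 79.95 and 102 counts on each, so their split is uncertain. Their sum was 26.8 and 29.7 TPM.

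In the mm10 tables the helicase gene Eif4a1 was the highest of the cap-binding side. Eif4a1 had 422 and 463 TPM and Eif4a2 172 and 175 TPM, while Eif4a3, the exon junction complex helicase, was the lowest of the group with 98.65 and 99.3 TPM. Eif4a1 held 71.1% and 72.6% of the Eif4a1 and Eif4a2 pair. This order depended on the processing: in the older mm9 table Eif4a1 had RPKM values of 24.5 and 29.96 and Eif4a2 of 34.4 and 49.6, and Eif4a1 held 39.6% of the pair on average. Eif4a1 had the lowest value of all members between the tables, a log2 difference of mm9 RPKM over mm10 FPKM of -4.28 against a median of -2.37 for the family. The processed pseudogene Eif4a-ps4 was listed with 14.5 and 20.4 TPM, and its posterior SD of 42.65 and 58.55 counts nearly equalled that of Eif4a1, 42.7 and 58.55 counts. The part that shared reads have in the difference between the tables was not tested.

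Eif4e, the principal cap-binding protein, had 42.2 and 48.5 TPM, and Eif4e2, a homolog known from translational repression, had 35.4 and 37.0 TPM. By expected counts, which are not divided by length, Eif4e held 71.1% of its group on average, and in mm9 RPKM 67.9%, against 54.6% in TPM. Eif4e3 had 1.3 and 1.5 TPM. Eif4e1b, the oocyte form, was at 0 counts, which allows at most 0.0320 and 0.0222 TPM in replicates 1 and 2. Of the eIF4G scaffolds, Eif4g2, which lacks the eIF4E-binding part and serves cap-independent initiation, was highest with 147 and 164 TPM. Eif4g1 had 94.5 and 96.8 TPM and Eif4g3 12.4 and 12.1 TPM. Eif4a1 exceeded Eif4e by 9.995-fold and 9.55-fold in TPM, but by 1.83-fold and 1.67-fold in mm9 RPKM. Eif4g1 exceeded Eif4e by 2.24-fold and 2.00-fold in TPM. The helper proteins of eIF4A were at similar levels, Eif4h at 78.8 and 95.35 TPM and Eif4b at 62.8 and 66.4 TPM.

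The proteins that bind and restrain eIF4E were led by Eif4ebp1, an mTOR target, with 50.9 and 48.7 TPM. It was 1.21-fold and 1.00-fold the level of Eif4e itself in TPM, but 0.544-fold and 0.595-fold in mm9 RPKM, where Eif4enif1 led the group. Eif4enif1, which carries eIF4E into the nucleus and to P-bodies, had 32.2 and 37.1 TPM, and Eif4ebp2 had 23.6 and 30.3 TPM. Eif4ebp3 was lowest with 1.63 and 0.35 TPM. At the joining step, Eif5, the GTPase activator of eIF2, had 81.7 and 93.95 TPM, Eif6, which keeps the ribosomal subunits apart, 61.6 and 61.3 TPM, and Eif5b, the subunit-joining GTPase, 22.1 and 23.95 TPM.

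**Figure D2:**
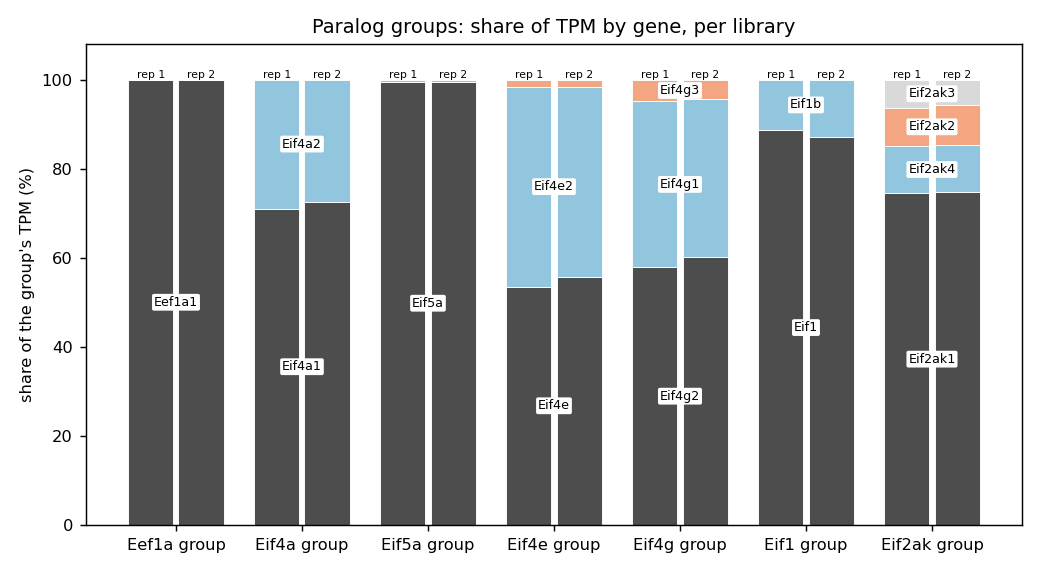
Share of TPM (vertical axis, percent) that each gene took of its paralog group, with replicate 1 left and replicate 2 right in each pair of bars. Eef1a1 and Eif5a fill nearly all of their groups, Eif2ak1 takes 74.5% and 74.8% of the eIF2 alpha kinases, and Eif4e takes 53.5% and 55.8% of its group, before Eif4e2 with 44.9% and 42.5%.

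The 2 libraries were alike for this family. Ratios of replicate 1 over replicate 2 were taken from expected counts scaled by TMM, a scaling that assumes most genes are equal. Of the 63 members that reached 100 counts over both libraries, 1 (1.59%) differed by at least 1.5-fold, against 5.82% of 14528 genes (4.34% of them higher in replicate 1, 1.47% in replicate 2). Within 1.1-fold were 57 of the 63 (90.5%), against 59.5% of all genes. Members were also deeper than most genes, since 61 had at least 1000 counts. Of these 61, 0 differed by at least 1.5-fold, against 1.49% of all genes with at least 1000 counts, so the shares were close at that depth. The median absolute log2 ratio was 0.06 for members, 0.11 for all genes and 0.09 for the 10856 genes with at least 1000 counts.

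The exception was Eif4ebp3 (chromosome 18, 36664060 to 36665917 on GRCm38, plus strand). It had 106 counts in replicate 1 and 33 in replicate 2, a log2 ratio of 2.35 (95% exact counting interval 1.78 to 2.97). Its posterior SD was 15.7 and 13.5 counts, or 14.8% and 41.3% of the estimate, so a large part of its count was an assignment between genes or transcripts. In the mm9 table its RPKM was 0.0239 and 0.0632 in the 2 replicates, which that table does not name. In the mm9 junction list, whose replicates are not named either, its 1 annotated splice junction had 222 and 257 reads. These exceed its gene counts of 106 and 33, and they do not show a difference of that size. All members together had 1101325 and 1701650 junction reads there. The cause of this gap was not tested. The muscle markers, at 149 and 20.4 TPM in sum, were higher in the same library, as were all 3 nervous system markers with at least 100 counts, 2 of them past 1.5-fold. Their part in the Eif4ebp3 and Eif2s2 differences was not tested.

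The next largest ratio belonged to Eif2s2 (chromosome 2, 154871410 to 154892935 on GRCm38, minus strand), whose 18805 and 22917 counts gave a log2 ratio of 0.39 (interval 0.36 to 0.41), higher in replicate 1. Eif2s1, its partner in eIF2, had a log2 ratio of 0.03, with an interval that included 0. The largest ratio in the other direction was that of Eif4ebp2, with a log2 ratio of -0.22 (interval -0.27 to -0.17), whereas Eif4ebp1 had one of 0.21 (interval 0.15 to 0.26). Of the kinases, Eif2ak1 had a log2 ratio of -0.10 (interval -0.13 to -0.08), slightly lower in replicate 1. The 8 erythroid markers went both ways, none past 1.5-fold: 6 had log2 ratios of -0.17 to -0.09, while Hbb-bs had 0.23 and Hba-a1 0.45. Their part in the Eif2ak1 ratio was not tested.

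With counting error as the only error, a two-sided exact conditional binomial test with Benjamini-Hochberg adjustment over all genes called 40 of 64 tested members (62.5%), of which 23 were higher in replicate 1 and 17 lower. The background was 40.4% of 18572 genes (19.8% of them higher in replicate 1, 20.5% in replicate 2), and 50.9% of all genes with at least 1000 counts against 63.9% of members with that many. Of the 40, Eif4ebp3 alone passed 1.5-fold. When edgeR's exact test was given a common dispersion fitted on these libraries, with Benjamini-Hochberg adjustment over all genes, it called Eif4ebp3 alone among members, against 2.54% of all genes. That dispersion was fitted with both libraries as 1 group, so the differences under test were themselves counted as noise. Its few calls therefore do not show that the other members were equal. These tests compare the 2 libraries and not conditions.

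**Figure D3:**
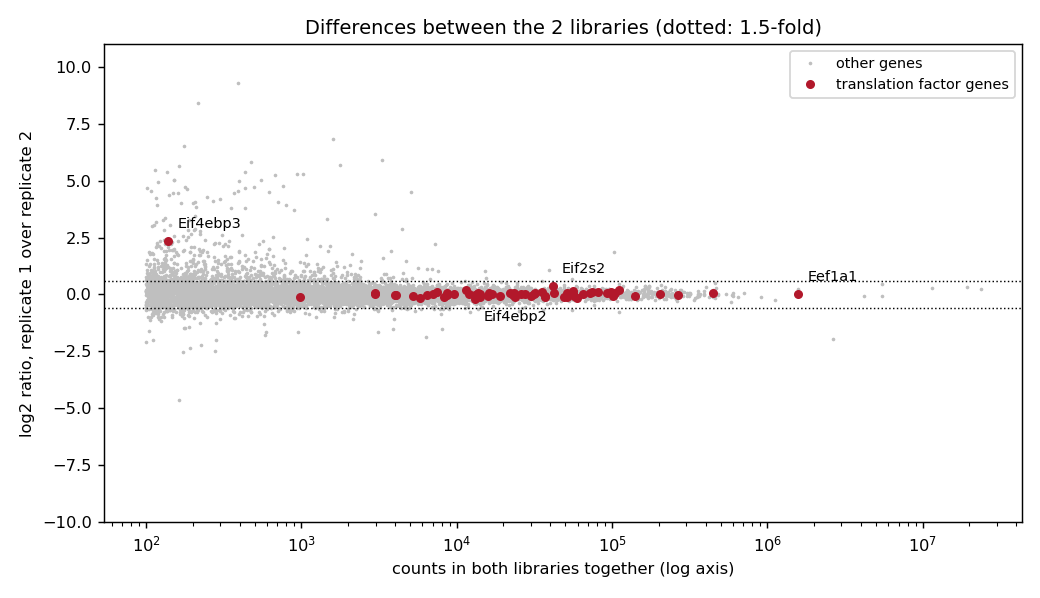
Log2 ratio of replicate 1 over replicate 2 (vertical axis) against the counts of both libraries together (horizontal log axis) for 14519 genes with at least 100 counts and a count above 0 in both, with the 63 translation factor genes as large points. Eif4ebp3 lies above the upper dotted line (1.5-fold), and the other members lie between the lines.

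Genes that work with these factors were nearly all detected. The partner lists named here were drawn up from textbook roles with earlier results of these data known. Both enzymes of hypusine synthesis on eIF5A were present, Dohh at 28.3 and 29.7 TPM and Dhps at 20.2 and 20.4 TPM. All 7 genes of diphthamide synthesis, the modification of eEF2, exceeded 1 TPM, from Dph3 at 36.3 and 37.5 TPM down to Dph6 at 5.41 and 6.08 TPM. Of the termination and recycling genes, 8 of 9 exceeded 1 TPM in both libraries, with the release factor gene Gspt1 highest (40.9 and 40.4 TPM) and its paralog Gspt2 lowest (0.92 and 1.05 TPM). Among poly(A)-binding and repressor genes, Pabpc1, the main cytoplasmic poly(A)-binding protein, was highest with 346 and 393 TPM and Cyfip1 had 5.90 and 6.79 TPM, the lowest mean of 11.

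The mTOR, S6 kinase and MNK list had medians of 9.55 and 9.87 TPM, with Mknk2, an eIF4E kinase, highest (45.4 and 51.8 TPM) and Tsc1 lowest (4.82 and 5.47 TPM). In the selenocysteine list Sephs2 was highest (51.5 and 59.2 TPM) and Sepsecs lowest (5.42 and 6.58 TPM). In the mitochondrial list, Tufm, the mitochondrial counterpart of eEF1A, had 58.99 and 64.9 TPM and Mtrf1 2.46 and 2.35 TPM. None of the genes in these lists differed by 1.5-fold between the libraries.

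The list of genes around eIF2 held the exception. Atf4, the transcription factor translated when eIF2 alpha is phosphorylated, was highest with 226 and 225 TPM, and Ppp1r15a, which returns eIF2 alpha to its unphosphorylated state, had 106 and 119.98 TPM. Trib3, a stress-induced pseudokinase, was lowest with 1.73 and 0.72 TPM. Trib3 had 335 counts in replicate 1 and 216 in replicate 2, a log2 ratio of 1.30, and was the only 1 of the 65 measured partner genes past 1.5-fold. RNA levels do not show the phosphorylation state of eIF2 alpha, which was not measured.

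In most members 1 transcript was assigned at least 50% of the gene's TPM. Of 58 members with at least 5 TPM, 21 had a single listed transcript, and the leading transcript held a median of 95.8% of the gene's TPM. By the mean of both libraries it held under 50% in 8 members, and by counts in 6. The 8 were Eef1d (31.8% and 28.1%), Eef2k (37.0% and 27.4%), Eif2b4 (36.7% and 38.3%), Eif4a2 (32.9% and 33.6%), Eif4e2 (45.8% and 50.6%), Eif4enif1 (28.3% and 25.9%), Eif4g1 (37.7% and 43.3%) and Eif4g3 (18.5% and 23.2%), in replicates 1 and 2. Since TPM divides by length, short transcripts weigh heavily: the leading transcript of Eif1ax was a 416-nucleotide retained-intron form with 78.2% and 77.9% of TPM but 12.6% and 12.3% of counts. For Eef1b2 the leading transcript, 691 nucleotides long, was annotated as a target of nonsense-mediated decay by TPM (56.4% and 62.8%) and by counts (45.3% and 49.0%) alike. Transcripts of a gene share exons, so such shares are estimates. Transcripts of that annotation held at least 10% of TPM in 5 members, namely Eef1akmt2, Eef1b2, Eif4a2, Eif4g1 and Eif6.

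Reads over splice junctions give a direct view of exon use. In the mm9 junction list, 65 members had 5951 junctions, and the 776 annotated ones held 99.1% and 99.2% of the reads in its first and second replicate, which the list does not tie to named samples. An exon was counted as skipped where the junction over it and both junctions into it each had at least 100 reads over both replicates. There were 11 such exons in 9 members, 7 of them with a length divisible by 3. Inclusion is the mean of the reads over its 2 junctions, as percent of that mean plus the skipping reads, and intervals are exact 95% binomial intervals that cover counting error only.

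In 3 members coding exons with lengths divisible by 3 were included at intermediate levels. The 60-nucleotide exon of Eif4h was included in 42.2% (interval 39.9% to 44.6%) and 42.8% (interval 41.0% to 44.6%). The transcript table lists 1 transcript for Eif4h, so this choice does not appear in it. The 72-nucleotide exon of Eif4enif1 was included in 45.5% and 46.3%, and the 72-nucleotide exon of Eef1d in 62.2% and 60.1%. Both Eef1d values lay within 2.14 percentage points of each other, yet their intervals (60.96% to 63.4% and 59.1% to 61.06%) overlapped only at the edge. The junctions on its sides were unequal, with 2676 and 4242 reads on the downstream side and 4723 and 7061 on the upstream side, so its inclusion depends on averaging them. A further Eef1d exon of 57 nucleotides was included in 2.28% and 2.53% and shares a junction with the 72-nucleotide exon.

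Eif2ak1 had an exon-skipping junction that the mm9 annotation lacks. It joined the exons on either side of a 234-nucleotide coding exon with 156 and 232 reads, and inclusion was 86.5% (interval 84.4% to 88.4%) and 87.9% (interval 86.4% to 89.3%). The exon is number 14 of 15 and its length is divisible by 3, so that the reading frame is kept when it is skipped. The sequences of these 4 exons are shown because they are the 3 coding exons at intermediate inclusion whose length is divisible by 3, and the one of the heme-regulated kinase. Capitals mark the exon and lower case the 12 bases of the neighbouring exons on each side, from GENCODE M21 transcripts on GRCm38, all read on the gene's own strand.
Eif4h, exon 5 of 7, chr5:134624441-134624500, minus strand: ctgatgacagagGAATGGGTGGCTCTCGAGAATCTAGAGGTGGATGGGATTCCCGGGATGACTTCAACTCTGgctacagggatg
Eif4enif1, exon 11 of 19, chr11:3233988-3234059, plus strand: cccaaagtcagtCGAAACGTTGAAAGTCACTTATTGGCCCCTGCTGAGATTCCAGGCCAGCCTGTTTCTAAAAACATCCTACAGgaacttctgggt
Eef1d, exon 3 of 7, chr15:75900691-75900762, minus strand: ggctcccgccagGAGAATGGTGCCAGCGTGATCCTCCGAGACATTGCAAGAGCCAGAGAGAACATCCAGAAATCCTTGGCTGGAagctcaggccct
Eif2ak1, exon 14 of 15, chr5:143899014-143899247, plus strand: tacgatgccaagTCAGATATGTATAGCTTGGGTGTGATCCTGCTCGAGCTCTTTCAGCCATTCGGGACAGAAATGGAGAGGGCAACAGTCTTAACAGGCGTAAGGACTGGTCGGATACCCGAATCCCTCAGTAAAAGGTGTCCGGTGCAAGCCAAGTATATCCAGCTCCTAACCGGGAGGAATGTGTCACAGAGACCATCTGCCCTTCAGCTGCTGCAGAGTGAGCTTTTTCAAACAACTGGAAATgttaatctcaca

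Eif4a2 held 2 skipped exons. Its 140-nucleotide coding exon, whose loss shifts the reading frame, was included in 81.4% and 81.9%. Its 107-nucleotide exon, which holds 7 coding bases before a stop, was included in 42.7% and 48.6%, the largest gap between replicates among the 11 exons at 5.86 percentage points. At this exon the list held an unannotated donor site 4 bases further downstream, joined to the same acceptor (chromosome 16, 23112535 to 23113239 on mm9). It had 1082 and 1366 reads, against 274 and 480 at the annotated donor, while the junction into the exon had 241 and 424 reads. The donor reads exceeded those entering the exon, so they cannot all come from a 111-nucleotide form of it, and they stand outside the inclusion values above.

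The remaining exons were nearly always or rarely used. Inclusion was 98.5% in both replicates for the 150-nucleotide exon of Eif3h, 92.6% and 92.8% for the 114-nucleotide exon of Eif4g2, and 93.2% and 91.3% for a 94-nucleotide exon of Eif4g1. A non-coding 94-nucleotide exon of Eif5a was included in 1.93% and 2.71%. In all, 10 unannotated junctions with at least 100 reads lay in 10 members. The one in Eif3a had the next most reads after Eif4a2, 844 and 1420.

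**Figure D4:**
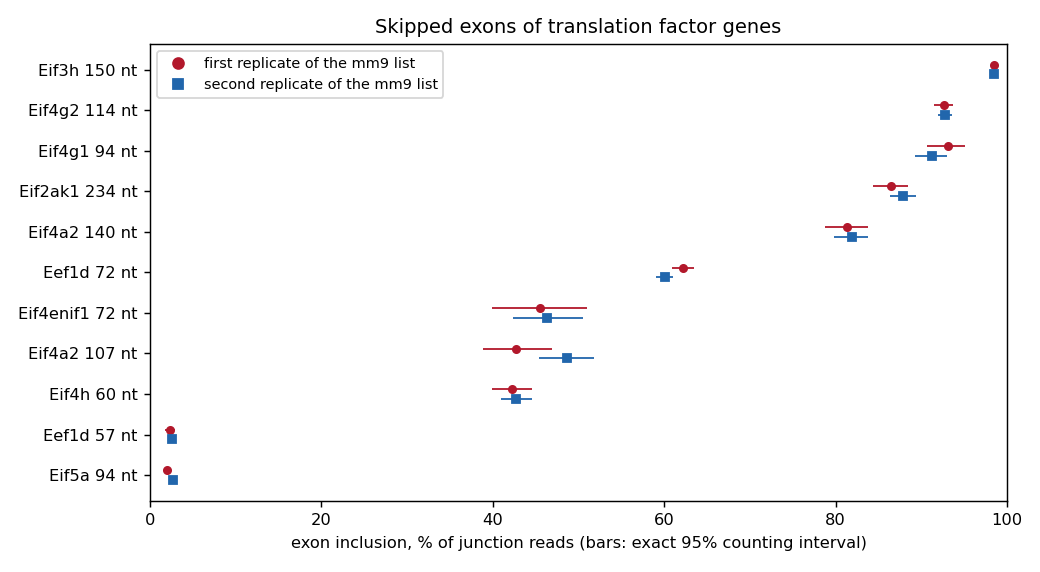
Inclusion of the 11 skipped exons in percent of junction reads (horizontal axis) for the first (circles) and second (squares) replicate of the mm9 junction list, with exact 95% counting intervals as bars. The 60-nucleotide exon of Eif4h, the 72-nucleotide exons of Eif4enif1 and Eef1d and the 107-nucleotide exon of Eif4a2 lie between 42.2% and 62.2%, and those of Eif3h and Eif5a lie near the ends of the axis.

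The older mm9 gene table ordered the members much as the mm10 tables did. Over 65 members, across genes, the mean RPKM and the mean FPKM (the same scaling for read pairs) had a Spearman rho of 0.94 and a Pearson r of 0.96 on the log2 scale after adding 0.1. The mm9 table does not name its libraries, and genes are not independent replicates. The members' median log2 difference of RPKM over FPKM was -2.37, against -2.02 over 11223 protein-coding genes of at least 1 FPKM. Next to Eif4a1, the largest differences were those of Eef1g (-3.99) and Eif1 (-3.63).

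RefSeq promoters (250 bases before the annotated start to 50 after it, GRCm38.p6) were matched by symbol for 51 of 67 members, with 66 promoters. Genes of the translation apparatus are known for messages that begin with a C followed by a run of pyrimidines, the terminal oligopyrimidine motif. A C at the annotated start followed by at least 4 pyrimidines was found in 1 of the 66 promoters (1.52%), that of Eif3f, where a run of 15 begins 4 bases before the annotated start, against 2.51% of all 32851 promoters and 17.1% of 76 ribosomal protein promoters. Allowing the run to begin up to 5 bases on either side gave 14 promoters (21.2%), against 18.3% of all and 40.8% of ribosomal protein promoters. The annotated start may not be the one used in this liver, which was not measured.

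The letters CACGTG, an E-box that reads the same on both strands, were present in 15 of the 66 member promoters (22.7%), against 7.15% of all promoters and 10.9% of 5049 promoters of protein-coding genes at 10 TPM or more in both libraries. Counted by gene it was 13 of 51 members (25.5%), against 8.09% of all genes in the table and 12.8% of protein-coding genes at 10 TPM or more in both libraries. Among the members with these letters were Eif5a, Eef2, Eif4a1, Eif3k and Eif4g1. A match is a description of letters and not a binding site, and promoters of a gene can overlap. The windows are shown for the pyrimidine run at the start of Eif3f, and for the CACGTG letters of the highest members that hold them, Eif5a (74 and 185 bases before 2 annotated starts) and Eef2 (43 bases before its start). Capitals mark the pyrimidine run or the letters CACGTG.
Eif3f, chr7:108934375-108934434, plus strand: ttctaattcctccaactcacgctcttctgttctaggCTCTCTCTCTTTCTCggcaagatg
Eif5a, chr11:69921428-69921487, minus strand: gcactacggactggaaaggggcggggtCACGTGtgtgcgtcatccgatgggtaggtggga
Eef2, chr10:81176561-81176620, plus strand: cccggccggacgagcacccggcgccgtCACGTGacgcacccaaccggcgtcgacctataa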

How the data were processed

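PolyA RNA, depleted of ribosomal RNA, was sequenced as stranded read pairs. The gene and transcript tables hold, per the file headers, one library each, with expected counts, TPM, FPKM and a score (the posterior SD of the count) that the authors deposited on mm10 with the GENCODE annotation. The authors deposited RPKM values and junction read counts on mm9, with 2 replicates not tied to named samples. Which aligner and which quantifier made them is not given in the sources used here. Expected counts were rounded and scaled by TMM (edgeR 4.0.16, R 4.3.3). Genes with at least 100 counts in total entered fold counts and those with at least 10 entered the exact conditional binomial test (scipy 1.17.1, adjusted p under 0.05), which was checked on simulated data. DESeq2 1.42.0 gave alternative size factors. Depth was 100477392 and 154601605 expected counts. The member rule used names alone, but it and the lists were drawn up with earlier results of these data known. Values were printed for the 2 highest and the lowest member of each role group, the kinase and paralog groups, members under 1 TPM or past 1.5-fold, and members whose leading transcript held under 50%. From each partner list, the highest, the lowest and any gene past 1.5-fold were named. Other genes were named after their values were seen. Of same-strand neighbours at 1 TPM or more, Fgfr2 overlaps Eef1akmt2, Naprt overlaps Eef1d and Gm23262 overlaps Eif4g2.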

Additional observations from a re-analysis of the deposited data

How the results depend on the processing

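No paired analysis was possible because the series holds 1 group. Of 84 alternatives over all results, 63 moved the value by less than 1 SD between the libraries or, for counts, by at most 1.5-fold. Part of these 63 were fixed in advance and do not show stability. The mean of 2 libraries always lies within 1 SD of each, so leaving out 1 library could not move it further. Shares of a sum within a library are the same in FPKM as in TPM, apart from rounding. The median member level of 39.9 TPM was 47.7 in FPKM, 74.2 TPM when globin genes were left out of the sum, 34.9 TPM as a geometric mean with a pseudocount of 0.1, and 45.95 TPM over members at 1 TPM or more. The members' share of TPM, 1.04%, was 1.98% without globin genes. The single member past 1.5-fold became 3 with no count minimum (Eef1a2, Eef1akmt3 and Eif4ebp3), 0 at a minimum of 1000 counts, 2 at a lower fold limit (Eif2s2 and Eif4ebp3) and 2 in mm9 RPKM after adding 0.1, uncentred around a median log2 ratio of -0.36 (Eif2s2 and Eif3c). There Eif4ebp3, at 0.0239 and 0.0632 RPKM, lies under the 0.1 added, which keeps it below the limit. Of the 40 members beyond counting error, the edgeR exact test with a common dispersion called 1, also at an unadjusted p under 0.05. Its dispersion counts the differences between the libraries as noise. The other alternatives called 35 to 41. The 11 skipped exons became 62 at a minimum of 10 reads. The share of promoters with a pyrimidine run at the start, 1.52%, was 21.2% when the run could begin within 5 bases. The Eif4a1 share fell to 39.6% in mm9 RPKM, against 71.8% in TPM, and the Eif4e share was 71.1% by expected counts and 67.9% in mm9 RPKM, against 54.6% in TPM. The cause of each change was not tested, beyond the genes or reads that an alternative leaves out or adds by construction.

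Leaving out each library in turn gave medians of 37.4 to 42.35 TPM, 62 to 63 members at 1 TPM or more, shares of 1.01% to 1.07%, a median spread over 5 complexes of 2.99-fold to 3.41-fold, 7 to 9 members with a leading transcript under 50%, 3 paralog groups led by at least 75% and 8 skipped exons in each case. Of 2 alternatives chosen after seeing the data, counting by gene gave a CACGTG share of 25.5%, and mm9 RPKM gave a median complex spread of 2.93-fold, against 3.20-fold in TPM. With 2 libraries from 1 donor entry, levels rest on few samples, and counting intervals cover no variation between animals.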
